A study of Sus scrofa with 34 samples.

Results

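Tight junctions are the belts of membrane strands that close the gap between neighbouring epithelial cells, and 9 pig genes of these belts were followed here by messenger RNA level in ileum and liver. The members were the rows of the count tables whose Ensembl symbol was OCLN, TJP1, CLDN1, CLDN2, CLDN3, CLDN4, CLDN7, CLDN15 or F11R, 9 of 25880 genes in the tables. The measurement was bulk RNA sequencing of pigs labelled day 28, fed a basal diet (control), the same diet with a phytogenic feed additive (PFA), a diet holding oxidized oil (OO), or oxidized oil together with the additive (OO + PFA). PFA combines essential oils with single aroma compounds such as carvacrol and menthol, and the oxidized oil was rapeseed oil heated in a fryer, fed to impose oxidative stress. The diets without it held only a little fresh rapeseed oil, so that oxidation and the amount of oil cannot be told apart. All pigs were weaned crossbred piglets with no genetic change. Ileum was sequenced from 5 control and 5 PFA pigs and liver from 6 pigs of each diet. Each diet was fed in a single pen, so that diet and pen cannot be told apart. A library is named here by its diet (C, P, OO or OP for OO + PFA) and the pig's number, so that C-71 in ileum and C-71 in liver are the same animal.

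Claudins and occludin cross the membrane and pair with partners of the neighbouring cell. Some claudins seal the strands against ions and solutes, while others form channels for small ions or water. Tight junction protein 1 and its relatives tie the strands to the actin skeleton, and the junctional adhesion molecule A helps to place the belt. In the ileum the belt separates the gut content from the body, and in the liver it separates bile canaliculi, which lie between hepatocytes, and bile ducts from blood.

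The 9 genes lie on 7 chromosomes of the Sscrofa11.1 assembly, as annotated by RefSeq. OCLN (occludin) lies at chr16:47600175-47652435 on the forward strand and TJP1 (tight junction protein 1, also ZO-1) at chr1:144930387-145195857 on the reverse strand. F11R (junctional adhesion molecule A) lies at chr4:89425101-89447889, forward. CLDN1, a sealing claudin, is at chr13:127714857-127730628, reverse, and CLDN2, which forms a channel for cations and water, at chrX:87352695-87355724, forward. CLDN7, a claudin found along the lateral membrane as well as in the belt, is at chr12:52612517-52628376, reverse, and CLDN15, a cation channel of the small intestine, at chr3:8931099-8937189, reverse. CLDN3 (chr3:11019073-11020102, reverse) and CLDN4 (chr3:11039711-11053930, forward), both counted among the sealing claudins, are close neighbours on chromosome 3. The GC content of the exons ran from 45.2% in OCLN over 48.1% in TJP1, 49.9% in CLDN1, 52.0% in F11R, 56.8% in CLDN2, 61.0% in CLDN7, 62.2% in CLDN4 and 62.3% in CLDN15 to 69.4% in CLDN3.

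The claudins share a signature in their first extracellular loop, a tryptophan, then glycine, leucine and tryptophan in a row, then a pair of cysteines, and the coding bases from the first tryptophan to the second cysteine are shown because they tell which members could be confused in read counting. Sequences are the reference of Sscrofa11.1 read 5′ to 3′ on the coding strand, with the codons of the signature in capitals, for CLDN1 (chr13:127730210-127730314), CLDN2 (chrX:87353191-87353295), CLDN3 (chr3:11019772-11019876), CLDN4 (chr3:11052530-11052634), CLDN7 (chr12:52614226-52614330) and CLDN15 (chr3:8936048-8936149).
CLDN1: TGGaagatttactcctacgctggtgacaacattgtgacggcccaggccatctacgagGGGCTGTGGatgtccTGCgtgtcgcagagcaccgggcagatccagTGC
CLDN2: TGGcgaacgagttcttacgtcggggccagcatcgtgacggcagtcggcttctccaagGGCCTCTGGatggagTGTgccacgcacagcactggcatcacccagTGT
CLDN3: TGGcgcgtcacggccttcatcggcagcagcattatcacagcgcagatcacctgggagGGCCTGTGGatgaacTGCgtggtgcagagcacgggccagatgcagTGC
CLDN4: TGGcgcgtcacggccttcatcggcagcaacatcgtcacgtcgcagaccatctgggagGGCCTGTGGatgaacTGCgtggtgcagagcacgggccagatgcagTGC
CLDN7: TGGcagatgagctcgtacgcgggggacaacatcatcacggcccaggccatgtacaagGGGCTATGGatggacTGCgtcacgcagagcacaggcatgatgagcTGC
CLDN15: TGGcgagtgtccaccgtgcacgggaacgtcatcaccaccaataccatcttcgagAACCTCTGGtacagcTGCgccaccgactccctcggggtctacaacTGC
CLDN15 has an asparagine where the other members have the glycine, and its stretch is shorter by 1 codon. CLDN3 and CLDN4 differed at 7 bases, against 25 for CLDN1 and CLDN7 and 31 to 44 for the other pairs of the 5 members with equal length. Over the annotated coding sequences, CLDN3 and CLDN4 shared 63.8% of aligned residues, CLDN1 and CLDN7 60.3% and other pairs 33.6% to 47.4%. Over the joined annotated exons, the longest run of identical bases was 57 for CLDN3 and CLDN4, 14 for CLDN1 and CLDN7 and 10 to 13 for other pairs. Reads were longer than the run of CLDN3 and CLDN4 according to the study's methods, so that no whole read of these joined exons matches both genes without a mismatch. The RefSeq model of CLDN3 holds 790 exon bases and 426 coding bases, fewer than any other member. It codes for 141 residues, where the other claudins here have 209 to 234, so the model may be incomplete. The identity and the longest run of CLDN3 rest on this model.

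Because CLDN3 and CLDN4 varied together across libraries (below), the 200 bases before each annotated start are also given, read toward the gene, with every GC box (GGGCGG on either strand) in capitals. The window of CLDN3 is chr3:11020103-11020302 (reverse strand) and that of CLDN4 is chr3:11039511-11039710 (forward strand).
CLDN3 upstream: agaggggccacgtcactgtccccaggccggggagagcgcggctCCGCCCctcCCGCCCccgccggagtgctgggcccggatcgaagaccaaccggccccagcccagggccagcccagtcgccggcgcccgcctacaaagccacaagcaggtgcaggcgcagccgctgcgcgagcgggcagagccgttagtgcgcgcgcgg
CLDN4 upstream: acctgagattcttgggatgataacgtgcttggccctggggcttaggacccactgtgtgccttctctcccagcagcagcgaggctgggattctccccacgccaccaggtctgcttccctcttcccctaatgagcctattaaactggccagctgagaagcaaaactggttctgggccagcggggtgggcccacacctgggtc
The window of CLDN3 held 2 GC boxes and 76.5% GC, and that of CLDN4 held 0 and 59.5% GC. A GC box occurred in 42.3% of the same windows of 20657 annotated genes. The letters are a description of these windows and say nothing about a factor.

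The libraries held 18772230 to 24338165 counts on genes in ileum (median 20503630, n = 10) and 18738055 to 42446834 in liver (n = 24). No libraries held identical counts. The liver library OP-77, which the study also excluded on suspicion of RNA degradation, was left out of the main liver fits. These fits held the other 23. Levels are given as CPM, counts scaled to a library of fixed size. The 6 hepatocyte markers summed to 2088 to 4897 CPM in ileum, nearly all of it APOA1 and CPS1, which enterocytes also make. Of the rest, ALB reached at most 0.216 CPM, FGB 0.894 and SERPINA1 0.0497 (at most 3.78 in liver too), and TTR was at 0 counts in 10 of 10 ileum libraries. In liver, the villus enterocyte list summed to 507 to 1181 CPM, mostly ANPEP and MTTP (and APOA4, up to 675 CPM), and the epithelium list to 318 to 673 CPM, mostly KRT8 and KRT18, genes that hepatocytes also make. The intestinal markers SI, GPA33, KRT20 and FABP2 were at 0 in 22, 20, 19 and 18 of 23 livers. The other markers of these 2 lists were not absent. CDX2 and LGALS4 were detected in every liver, at up to 0.520 and 1.14 CPM. CDH17 was at 0 in 2 livers and reached 0.672 CPM. VIL1 reached 31.5 CPM, HNF4G 19.4, EPCAM 7.84 and SLC5A1 4.98. C-80 stood apart in ileum by B cell markers, summing to 525 CPM against 8.58 to 19.0 in the other 9 libraries. The liver titles come in 2 forms, PigLiv and PL, whose meaning the labels do not give.

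Levels of different genes were compared per kilobase of exon. The lengths are those of the RefSeq models, while reads were counted per Ensembl gene. If the short RefSeq model of CLDN3 is incomplete, its level per kilobase and its place are too high. In ileum CLDN7 led with a mean of 119 CPM per kilobase (SD 34.0, n = 10), followed by F11R at 107 (SD 13.9), and these neighbours did not differ beyond their spread. OCLN (37.6, SD 7.01), CLDN2 (33.4, SD 8.46), CLDN4 (27.4, SD 18.03), TJP1 (27.1, SD 3.88) and CLDN3 (16.8, SD 15.6) formed a middle range in which each neighbour lay within the spread of the next. CLDN1 was near the floor at 0.277 (SD 0.319), below every other detected member. In liver the order was led by CLDN1 at 118 CPM per kilobase (SD 23.8, n = 23), with every library above all libraries of the next gene, F11R, at 44.96 (SD 11.3). CLDN3 and CLDN4 both had a mean of 19.3 (SD 23.1 and 14.8), CLDN2 8.60 (SD 3.30), OCLN 7.63 (SD 1.55) and TJP1 7.45 (SD 1.27), again without separation of neighbours, and CLDN7 was lowest of the detected members at 1.67 (SD 0.609). Per kilobase of coding sequence, CLDN7 in ileum and CLDN1 in liver still led, while F11R stood at place 4 in ileum and at place 3 in liver, in each case after place 2 per kilobase of exon. CLDN15 had 0 counts in all 34 libraries, which allows up to 3 counts in each for counting error alone, and it entered no test. The gene models and strand setting used for counting are not given in the sources used here, so that a gene that was silent and a gene whose reads were not counted cannot be told apart.

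**Figure D1:**
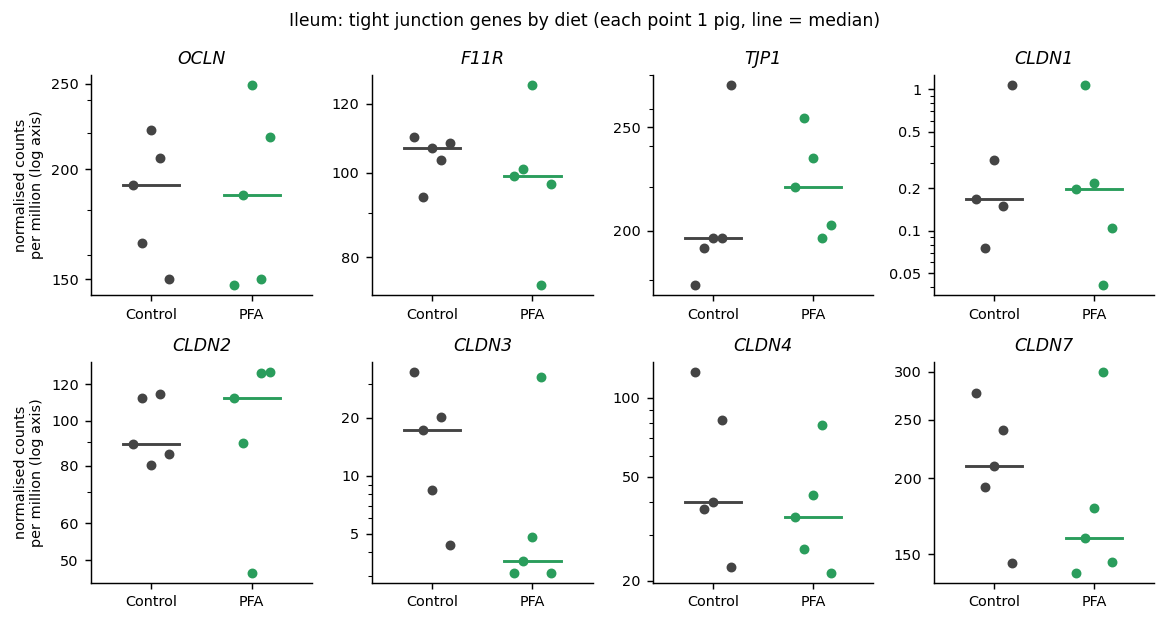
Level in ileum of each member in CPM on a log axis, 1 point per library and a line at the group median, for 5 control and 5 PFA pigs. The points of both diets overlap for every member, and P-134 is the highest PFA library for CLDN3 (32.7 CPM), CLDN4 (78.8 CPM) and CLDN7 (299.7 CPM).

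The first comparison asked whether PFA changed the members in ileum. None of the 7 members tested was called by edgeR's quasi-likelihood test at an adjusted p of at most 0.05, in a comparison in which 0% of 14300 genes were called (401 genes had an unadjusted p under 0.05, none of them a member, and DESeq2 called 4 genes and no member). The members' median log2 difference was -0.07, beside 0.02 over all genes tested. In a bulk sample, fewer cells of a type and less RNA per cell cannot be told apart.

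CLDN3, the member with the widest range in ileum, measured 34.6 CPM in C-71, 17.3 in C-80, 8.47 in C-92, 20.3 in C-100 and 4.35 in C-110. The PFA libraries held 3.14 CPM in P-75, 3.63 in P-95, 4.83 in P-107, 32.7 in P-134 and 3.14 in P-138. Of the PFA libraries, 4 lay within 1 narrow low range and P-134 among the highest controls, so the groups overlapped. The log2 difference of PFA from control was -0.84 (SE 0.74, 95% interval -2.46 to 0.79, adjusted p = 0.991). Without P-134 it became -2.21 (adjusted p = 0.329), and without C-71 it became -0.41.

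CLDN4 measured 125.5, 37.8, 40.2, 82.3 and 22.5 CPM in the same order of controls, and 34.9, 26.5, 42.5, 78.8 and 21.5 CPM in P-75, P-95, P-107, P-134 and P-138. The highest control and the highest PFA library were again C-71 and P-134, and the log2 difference was -0.59 (SE 0.47, 95% interval -1.61 to 0.43), which became -0.98 without P-134, -0.16 without C-71 and -0.10 with the GC slope (below) as a covariate. CLDN7 measured 276, 194, 210.0, 241 and 145 CPM in the controls and 140, 159, 179, 299.7 and 146 CPM in the PFA libraries. Its groups overlapped with the same 2 libraries on top, and the log2 difference was -0.21 (SE 0.23, 95% interval -0.71 to 0.29), with -0.45 without P-134 and -0.10 without C-71.

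The other members were more even. OCLN ranged from 150.2 to 222 CPM in controls and from 147.7 to 249.5 in PFA pigs, with a log2 difference of 0.03 (SE 0.17, 95% interval -0.34 to 0.39). TJP1 ranged from 178 to 274 and from 197 to 255 CPM (0.09, SE 0.13, 95% interval -0.19 to 0.38). CLDN2 ranged from 80.4 to 114 and from 47.0 to 127 CPM (0.07, SE 0.24, 95% interval -0.45 to 0.58). For OCLN and TJP1 the intervals leave room for changes of at most 0.39 on the log2 scale in either direction, and for CLDN2 of at most 0.58. F11R ranged from 93.8 to 110.0 and from 74.3 to 126.2 CPM (-0.07, SE 0.13, 95% interval -0.35 to 0.21). CLDN1 had 1 to 25 counts per ileum library and was not kept by the filter on low counts in the ileum fit.

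Markers of villus enterocytes, the absorptive cells of the ileal lining (5 of 6 in the table), summed to 17061 to 21154 CPM in controls and 13707 to 18504 CPM in PFA pigs, while 11 of 12 general epithelial markers in the table summed to 10106 to 13813 and 9972 to 14190 CPM. Across the 10 ileum libraries, no member's level was related to the mean epithelial marker level after adjustment over the 7 members. The closest was OCLN, with Pearson's r = 0.649 (permutation p = 0.0463, adjusted p = 0.324), Spearman's rho = 0.624 (adjusted p = 0.423) and r = 0.629 without the 2 libraries farthest from the median. Setting these 2 aside took r from 0.39 to 0.65 for CLDN4, from 0.34 to 0.57 for CLDN7 and from 0.08 to -0.397 for CLDN2. The part of the enterocyte share in the members' values was not tested beyond this.

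**Figure D2:**
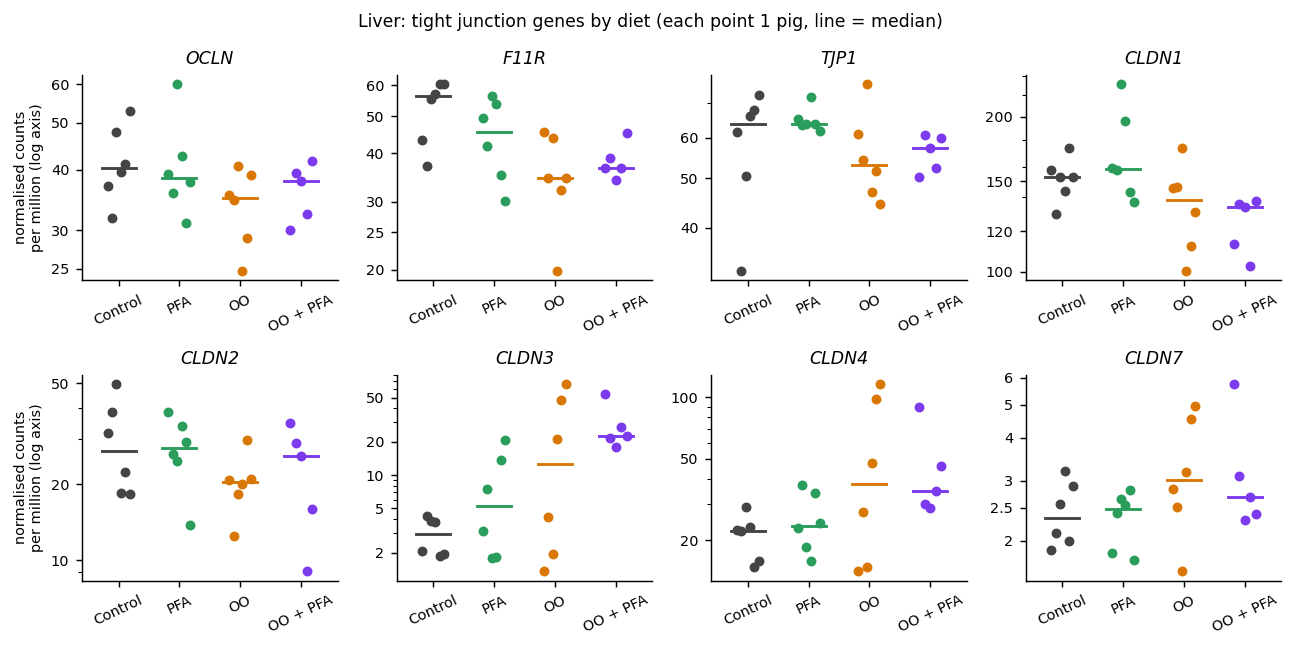
Level in liver of each detected member in CPM on a log axis, 1 point per library and a line at the group median, for 23 libraries of the 4 diets. The 5 OO + PFA libraries of CLDN3 lie between 18.1 and 53.5 CPM, above all 6 controls (1.87 to 4.27 CPM), whereas 3 of 6 OO libraries lie within or below the range of the controls.

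In liver the members were compared across the 4 diets in a single fit. CLDN3 was the 1 member of 8 tested that differed among the diets (adjusted p = 0.0485), in a comparison that called 3.66% of 13831 genes. CLDN3 rose with OO and with OO + PFA relative to control, and no other member was called in these fits. The call across 4 diets stood close to the threshold and held when P-138, OO-74, OO-88 or OO-97 was left out (each in turn) but was lost without any 1 of the other 19 libraries, with adjusted p between 0.0182 and 0.0978.

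Control livers held CLDN3 at 1.87 CPM at the lowest, 2.94 at the median and 4.27 at the highest. PFA livers held it at 1.80, 5.31 and 20.7 CPM, with P-134 (13.6 CPM) and P-138 (20.7 CPM) above the rest. OO livers held it at 1.36, 12.7 and 66.1 CPM. The OO livers split into OO-130 (66.1 CPM), OO-102 (47.3 CPM) and OO-99 (21.2 CPM), all above every control, and OO-88 (4.23 CPM), OO-97 (1.94 CPM) and OO-74 (1.36 CPM), all at or below the highest control. OO-130 had the lowest depth of the fitted livers (19839171 counts on genes). Its reads with several alignments came to 14.7% of these counts, against 3.02% to 8.46% in the other fitted livers and 36.6% in OP-77. The part of read quality in the level of CLDN3 was not tested. The OO + PFA livers held 53.5 CPM in OP-79, 21.6 in OP-98, 18.1 in OP-105, 26.9 in OP-126 and 22.4 in OP-137, and all 5 exceeded every control. How many of all genes separated these 2 diets was not computed, and 22.6% of genes had an unadjusted p under 0.05 between them.

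Against control, CLDN3 rose by 2.98 on the log2 scale in OO (SE 0.78, 95% interval 1.36 to 4.59, 7.87-fold, adjusted p = 0.0427), with 4 of 6 OO livers above the control mean. It was 1 of 8 members called higher, where 1.37% of all genes were called higher, and 0 of 8 members were called lower, where 1.34% of all genes were. With OO + PFA it rose by 3.25 (SE 0.80, 95% interval 1.59 to 4.91, 9.53-fold, adjusted p = 0.0267), in 5 of 5 livers. Here 1 of 8 members was called higher beside 4.09% of all genes, and 0 of 8 lower beside 0.991%. Both comparisons use the same 6 control libraries, so they are not independent of each other. The call with OO was lost (adjusted p up to 0.133) without any 1 of C-71, C-80, C-85, C-92, C-100, C-110, P-75, OO-99, OO-102, OO-130, OP-98, OP-105 or OP-126, and that with OO + PFA (up to 0.0691) without C-71, C-100, C-110 or OP-79, while the rise itself stayed between 2.34 and 3.23 and between 2.90 and 3.38.

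Within title form PigLiv the log2 difference of CLDN3 was 3.26 for OO (adjusted p = 0.105) and 3.63 for OO + PFA (adjusted p = 0.0539), and within form PL it was 2.46 (adjusted p = 0.399) and 2.43 (adjusted p = 0.875). PFA alone gave a log2 difference from control of 1.44 (SE 0.75, 95% interval -0.11 to 2.99, adjusted p = 0.479) and was not called. None of the 8 members was called for PFA against control, and 0% of 13831 genes were (1522 had an unadjusted p under 0.05, none a member; DESeq2 called 43 genes and no member). OO + PFA differed from OO in CLDN3 by 0.28 (SE 0.75, 95% interval -1.27 to 1.82), an interval that holds anything from a fall to a rise of over 1 unit. For OO + PFA against OO, 0 of 8 members and 0% of all genes were called (1176 genes with an unadjusted p under 0.05, none a member; DESeq2 31 genes and no member). The interaction of oil and additive was -1.16 for CLDN3 (SE 1.06, adjusted p = 0.646), and 0 of 8 members and 0% of genes were called for it (1881 genes with an unadjusted p under 0.05, none a member; DESeq2 150 genes and no member).

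OO + PFA against PFA asked what the oil did in pigs that also received the additive. No member was called higher (1.24% of genes were) or lower (0.333% of genes were), although CLDN1 and CLDN3 had an unadjusted p under 0.05. CLDN3 differed by 1.81 (SE 0.76, adjusted p = 0.162), with 5 of 5 livers above the PFA mean, and CLDN1 by -0.45 (SE 0.15, adjusted p = 0.106), with 5 of 5 below it. DESeq2 called CLDN1 here. The libraries of TJP1 did not overlap between these diets (61.8 to 71.9 CPM with PFA, 50.2 to 60.7 with OO + PFA), yet the difference of -0.21 (SE 0.16, adjusted p = 0.410) missed the threshold. The share of all genes without overlap was not computed, and 23.5% of genes had an unadjusted p under 0.05 in this comparison.

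CLDN4 followed CLDN3 with smaller differences. Control livers held 14.9, 22.3 and 29.2 CPM (lowest, median, highest), PFA livers 15.9, 23.6 and 37.1, and OO livers 14.1, 37.8 and 116. The OO + PFA livers held 89.5 CPM in OP-79, 30.0 in OP-98, 28.9 in OP-105, 34.9 in OP-126 and 46.1 in OP-137. The highest libraries were those of CLDN3, OO-130, OO-102 and OP-79, and the groups overlapped. The log2 difference from control was 1.31 in OO (SE 0.43, 95% interval 0.43 to 2.19, adjusted p = 0.0838) and 1.11 in OO + PFA (SE 0.44, 95% interval 0.20 to 2.02, adjusted p = 0.132). CLDN4 was called for OO when OO-74 or OO-97 was left out (adjusted p = 0.0312 and 0.0262) and by DESeq2. CLDN7 was at most 5.74 CPM in liver (OP-79), from 1.88 to 3.20 CPM in controls and from 1.63 to 4.97 with OO, with differences of 0.41 (SE 0.26) for OO and 0.41 (SE 0.27) for OO + PFA. These became 0.18 and -0.02 after GC correction (below), and the second became 0.09 without OP-79.

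F11R ran the other way. Control livers held 37.2, 56.3 and 60.6 CPM, PFA livers 30.1, 45.6 and 56.3, OO livers 19.9, 34.5 and 45.6, and OO + PFA livers 36.8 CPM in OP-79, 39.0 in OP-98, 34.1 in OP-105, 36.7 in OP-126 and 45.2 in OP-137. All 6 OO and all 5 OO + PFA livers lay below the control mean, and both groups overlapped the lowest controls, C-80 and C-71. The difference was -0.58 in OO (SE 0.18, 95% interval -0.95 to -0.21, adjusted p = 0.0748) and -0.45 in OO + PFA (SE 0.19, adjusted p = 0.152). It was called for OO by DESeq2 (-0.60) and when OO-74 or OO-97 was left out (adjusted p = 0.0371 and 0.0331).

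CLDN1 was the most abundant member in liver, at 130 to 174 CPM in controls, 136.6 to 232 with PFA, 101 to 174 with OO and 103 to 137.4 with OO + PFA. Its differences from control were -0.17 (SE 0.14) in OO and -0.28 (SE 0.15) in OO + PFA, neither called. OCLN (31.8 to 52.9 CPM in controls) differed by -0.30 (SE 0.15) and -0.20 (SE 0.16), and TJP1 (32.96 to 72.6 CPM) by -0.07 (SE 0.15) and -0.06 (SE 0.16). CLDN2 (18.2 to 49.6 CPM in controls) differed by -0.55 (SE 0.30) and -0.38 (SE 0.32). None of the 4 genes was called in these comparisons. Over the 8 members the median log2 difference was -0.12 in OO and -0.13 in OO + PFA, beside 0.06 and -0.01 over all genes tested.

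The libraries also differed in how counts depended on the GC content of genes, and this difference moved with the members. The GC slope of a library is the change in its log2 CPM, relative to the mean of all libraries of that tissue, per 10% of GC content. In liver it ran from -0.205 to 0.0824 in controls (median -0.109), from -0.474 to 0.0668 with PFA (median -0.117), from -0.378 to 0.418 with OO (median 0.0733) and from 0.0406 to 0.487 with OO + PFA (median 0.172). In ileum it ran from -0.233 to 0.258 in controls and from -0.373 to 0.373 with PFA. A GC value was at hand for 79.3% of the genes tested in ileum and 79.7% in liver, under 80%, so a GC check over all genes is void. The slope and the fits that use it are therefore given as values beside the members, all of which have a GC value, and support no statement on other genes. Where values of these fits are given below for list genes or as counts over all genes, they describe the fits only. The slope was fitted over the genes with a GC value, members among them, and GC-rich genes follow it on average by its definition. The permutation p-values below are thus no independent test of GC dependence. The share of all genes related to the slope was not computed, so the counts of members have no background.

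**Figure D3:**
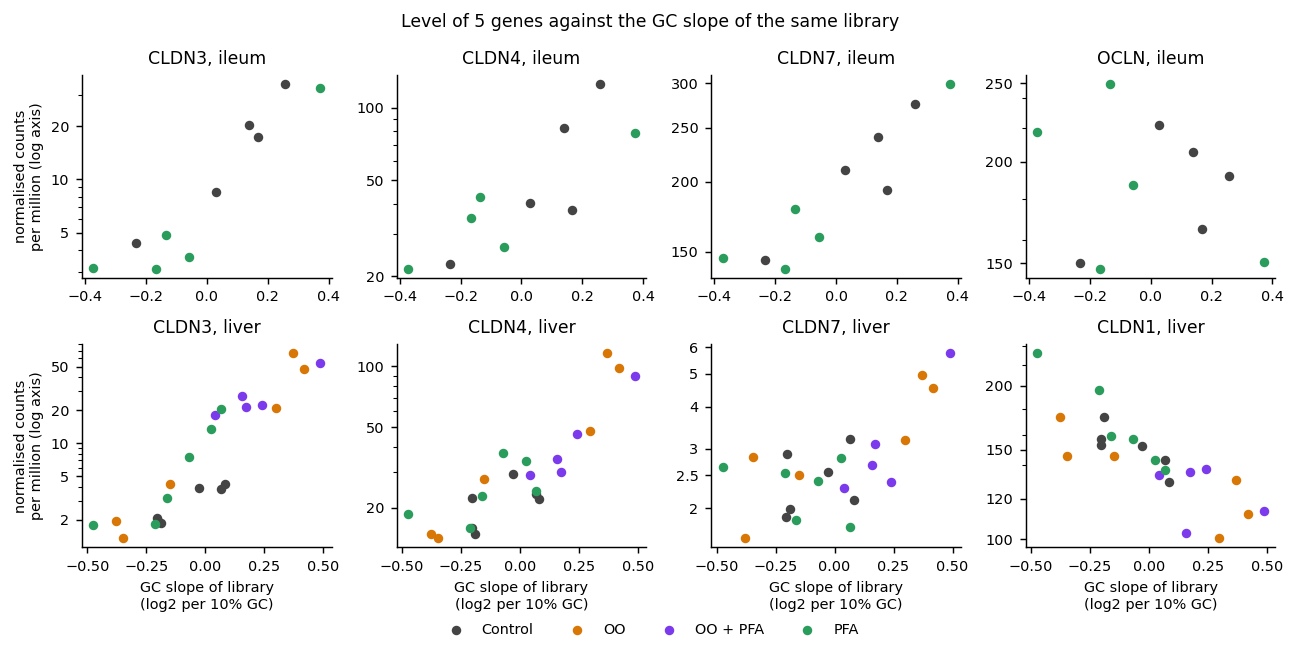
Member level (CPM on a log axis) against the GC slope of the library (log2 per 10% GC), 1 point per library coloured by diet, for CLDN3, CLDN4, CLDN7 and OCLN in ileum (upper row) and CLDN3, CLDN4, CLDN7 and CLDN1 in liver (lower row). CLDN3 rises along the slope in both tissues (r = 0.935 and 0.916), and CLDN1 in liver falls (r = -0.829).

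In liver, 7 of 8 members were related to the slope (23 libraries, permutation test, adjusted over the 8 members). Pearson's r was 0.916 for CLDN3 and 0.879 for CLDN4, each at the smallest p the permutations could give (1e-05, adjusted p = 2.67e-05), with rho = 0.936 and 0.857. CLDN7 followed with r = 0.665 (adjusted p = 0.00094), and CLDN1 was the most negative at r = -0.829 (p = 1e-05, adjusted p = 2.67e-05). OCLN (r = -0.608), F11R (r = -0.593) and TJP1 (r = -0.586) were also negative, each with an adjusted p of 0.00307 to 0.00314, and CLDN2 was near 0 (r = 0.00895). The members with the most GC thus had the positive and those with the least the negative coefficients, with CLDN2 between them. When the 2 libraries with the most extreme slopes were set aside, r was 0.913 for CLDN3, 0.877 for CLDN4 and -0.776 for CLDN1, and on deviations from the diet means it was 0.941, 0.887 and -0.782. Within the PigLiv libraries (n = 14) r was 0.936 for CLDN3 and -0.810 for CLDN1, and within the PL libraries (n = 9, exact permutation test) it was 0.900 (adjusted p = 0.00357) and -0.872 (adjusted p = 0.00357).

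In ileum, 3 of 7 members were related to the slope over 10 libraries. CLDN3 had r = 0.935 (permutation p = 7e-05, adjusted p = 0.00049, rho = 0.891), CLDN7 r = 0.920 (adjusted p = 0.000665, rho = 0.903) and CLDN4 r = 0.836 (adjusted p = 0.00693, rho = 0.806). These stayed at 0.939, 0.899 and 0.790 without the 2 farthest libraries. P-134 and C-71, the libraries with the most CLDN7, also had the highest slopes of the 10 (0.373 and 0.258). The mean epithelial marker level had r = 0.017 with the slope (permutation p = 0.962), and r = 0.488 without the 2 farthest libraries.

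With the mean GC trend of each library removed by a smooth curve, in the genes with a GC value, the difference of CLDN3 was smaller and still called. CLDN3 then rose by 1.71 on the log2 scale in OO (SE 0.44, adjusted p = 0.0231) and by 1.96 in OO + PFA (SE 0.46, adjusted p = 0.0129). Corrected levels of CLDN3 were 4.15 to 5.97 CPM in controls, 3.76 to 17.9 with PFA, 3.83 to 35.8 with OO and 15.2 to 25.8 with OO + PFA, and the OO + PFA livers stayed above every control. The corrected call for OO was lost without OO-102 or OO-130, and that for OO + PFA held whichever 1 library was left out (adjusted p up to 0.031). F11R fell by 0.55 in OO after correction (adjusted p = 0.0446) and was called, but only 9 of the 23 corrected fits that left out 1 library kept this call (adjusted p between 0.0250 and 0.0919). With the slope as a covariate, an alternative chosen after seeing the data, CLDN3 rose by 1.16 in OO (adjusted p = 0.0220), by 1.48 in OO + PFA (adjusted p = 0.0111) and by 1.39 in PFA (SE 0.29, adjusted p = 0.0437). For OO + PFA against PFA, however, the covariate left differences of 0.09 for CLDN3, -0.16 for CLDN1 and 0.01 for TJP1. CLDN4 in OO + PFA against control likewise fell to 0.07.

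**Figure D4:**
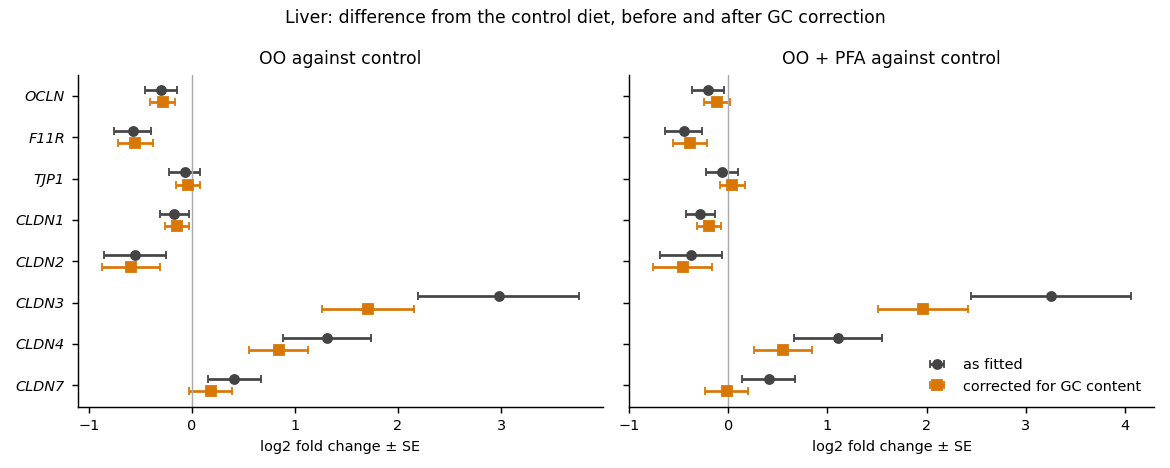
Log2 difference from control (point) with its SE (bar) of the 8 members tested in liver, for OO and OO + PFA, as fitted and after GC correction. For CLDN3 the correction takes the value from 2.98 to 1.71 in OO and from 3.25 to 1.96 in OO + PFA, and for CLDN4 from 1.31 to 0.84 and from 1.11 to 0.55.

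Bile duct cells, the other epithelium of a liver piece that is rich in tight junctions, were followed by 7 of 8 listed cholangiocyte markers (KRT19 was not analysed here), of which 6 passed the filter on low counts and entered the mean marker level. Their summed level ran from 30.4 to 45.8 CPM in controls, 25.7 to 63.5 with PFA, 34.8 to 76.5 with OO and 41.0 to 64.8 with OO + PFA. Over 23 livers, 5 of 8 members were related to the mean marker level, CLDN3 most (r = 0.658, permutation p = 0.00063, adjusted p = 0.00504, rho = 0.662, and r = 0.555 without the 2 farthest). CLDN4 (r = 0.522) and CLDN7 (r = 0.506) were positive and CLDN1 (r = -0.574) and F11R (r = -0.472) negative. On deviations from the diet means 1 member remained related, CLDN3 (r = 0.597, adjusted p = 0.021). Within the PigLiv libraries CLDN3 had r = 0.656 (n = 14, permutation test, adjusted p = 0.0444) and within the PL libraries r = 0.776 (n = 9, exact permutation test, adjusted p = 0.0628). The marker level itself moved with the GC slope (r = 0.581, permutation p = 0.00348), so that the 2 cannot be told apart here. The share of all genes related to the marker level was not computed, so the count of members has no background.

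**Figure D5:**
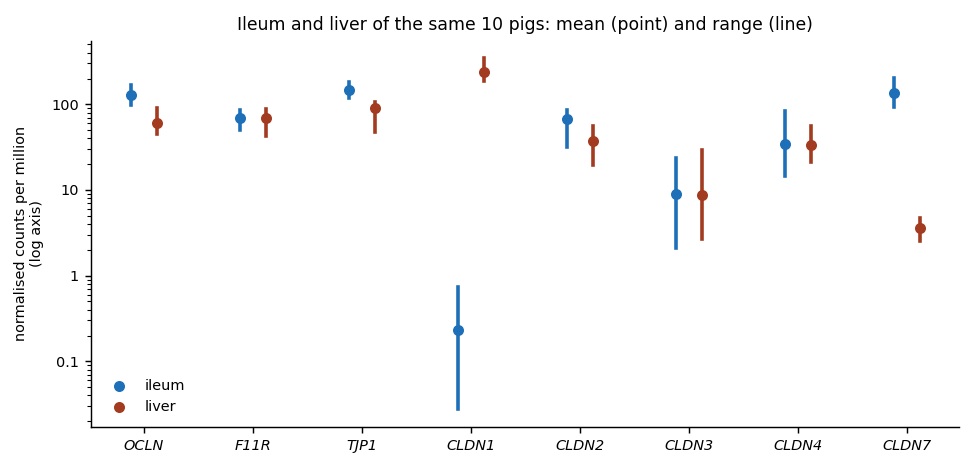
Member level in CPM on a log axis in ileum and liver of the same 10 pigs (5 control, 5 PFA), with a point at the mean and a line over the range of the 10 libraries. The ranges of CLDN7 (mean 135 and 3.55 CPM in ileum and liver) and CLDN1 (0.231 and 237 CPM) lie far apart in opposite directions, while those of CLDN3, CLDN4 and F11R overlap.

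Ileum and liver of the same 10 pigs differed in most members. The CPM in this comparison are on a scale set with the libraries of both tissues together, so they differ from the CPM given above for each tissue alone. CLDN7 was 37.7-fold higher in ileum (log2 difference 5.24, SE 0.18, adjusted p = 3.74e-17), with a mean of 135 CPM (SD 38.3) against 3.55 (SD 0.733). CLDN1 went the other way by 9.99 on the log2 scale (SE 0.38, adjusted p = 2.91e-16), with 237 CPM (SD 47.2) in liver and 0.231 (SD 0.265) in ileum, where libraries held 1 to 25 counts. Thus the sealing claudin that dominated the liver was all but missing in the ileum, and CLDN7 had the opposite pattern. OCLN (1.09, SE 0.13), CLDN2 (0.82, SE 0.18) and TJP1 (0.67, SE 0.11) were higher in ileum by smaller steps, in 10, 9 and 10 of 10 pigs. In all, 4 of 8 members were called higher in ileum, where 40.5% of 14982 genes were, and 1 of 8 lower, where 37.5% were.

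CLDN3 (0.21, SE 0.61, 95% interval -1.06 to 1.47), CLDN4 (0.04, SE 0.30, 95% interval -0.58 to 0.65) and F11R (-0.01, SE 0.12, 95% interval -0.27 to 0.25) were not called between tissues. The sign of F11R turned with the scaling (0.15 with upper quartile scaling), and those of CLDN3 and CLDN4 turned when C-71 was left out (-0.17 and -0.19). CLDN3 was higher in ileum in 7 of 10 pigs and was called in the control pigs alone (1.51, SE 0.48, adjusted p = 0.0146). The test of whether PFA acted differently in the 2 tissues called 0 of 8 members and 0% of 14982 genes (739 with an unadjusted p under 0.05, DESeq2 0). CLDN3 was the 1 member with an unadjusted p under 0.05, at a difference of -2.55 (SE 1.03, adjusted p = 0.976 by edgeR), PFA minus control being lower in ileum than in liver.

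Further genes of the junction were taken from lists of other claudins, other membrane proteins, scaffold and polarity proteins, regulators, and adherens junction and desmosome proteins, 72 genes of which 65 were in the table and 54 were tested in each tissue alone. In liver OO raised 2 of 54, MARVELD3 and YBX3, and OO + PFA raised 4, these 2 with CLDN14 and CTTN, while 0 of 54 fell in either, beside 1.37% of all genes called higher and 1.34% lower for OO and 4.09% and 0.991% for OO + PFA. Their median log2 difference was 0.06 in OO and -0.02 in OO + PFA, beside 0.06 and -0.01 over all genes. MARVELD3, a membrane protein of the occludin family, had a mean of 12.7 CPM in controls (SD 4.66, n = 6), 13.6 with PFA (SD 1.92, n = 6), 28.5 with OO (SD 7.19, n = 6) and 30.4 with OO + PFA (SD 6.79, n = 5). Every OO and OO + PFA liver (at least 21.6 CPM) lay above every control and PFA liver (at most 19.9 CPM). The share of all genes with such a separation was not computed. MARVELD3 rose by 1.16 in OO (SE 0.20, adjusted p = 0.00199), by 1.26 in OO + PFA (SE 0.21, adjusted p = 0.00218), and by 1.16 in OO + PFA against PFA (SE 0.21, adjusted p = 0.00424). In the fit with GC correction the differences from control were 1.18 in OO and 1.31 in OO + PFA, given as values only. Within title form PigLiv the difference for OO was 1.11 (adjusted p = 0.0501), and within form PL it was 1.18 (adjusted p = 0.172).

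YBX3, a transcription factor that binds TJP1, rose by 0.48 in OO (SE 0.11, adjusted p = 0.0166) and by 0.53 in OO + PFA (SE 0.11, adjusted p = 0.0139), the first being lost without C-85 (adjusted p = 0.0504). CLDN14, a claudin of liver, kidney and inner ear, rose by 1.67 in OO + PFA (SE 0.43, adjusted p = 0.0309), from 8.60 to 13.03 CPM in controls to 18.01 to 67.1. That call was lost without C-71, C-85, C-100, C-110, OP-79, OP-126 or OP-137 (adjusted p up to 0.0939), and with the GC slope as a covariate (0.86, adjusted p = 0.145). CTTN (cortactin, an actin binding protein) rose by 0.85 (SE 0.20, adjusted p = 0.0207), which was lost without C-71 or OP-79 and after GC correction (0.37, adjusted p = 0.0992) or with the slope covariate (0.51, adjusted p = 0.0523). ILDR2, a protein of junctions where 3 cells meet, fell by 0.87 in OO + PFA against PFA (SE 0.17, adjusted p = 0.0063). That call was lost with the slope covariate (-0.63, adjusted p = 0.077) and within title forms PigLiv (-0.84, adjusted p = 0.0606) and PL (-1.16, adjusted p = 0.458). Across the 4 diets MARVELD3 (adjusted p = 0.000251), ILDR2 (0.0151) and YBX3 (0.0203) were called, ILDR2 no longer with the slope covariate (0.0699).

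No gene of these lists was called in the other diet comparisons, where the smallest p-values belonged to VAPA, NECTIN3 and AMOT in ileum (log2 differences 0.28, 0.29 and 0.30), to YBX3, ROCK1 and ILDR2 for PFA in liver (0.32, 0.37 and 0.35), to CLDN14, AFDN and NECTIN1 for OO + PFA against OO (1.22, 0.54 and 0.48), to ILDR2, PARD6B and ROCK2 for the interaction (-0.68, -0.77 and -1.0002) and to LSR, CTTN and AMOT for the additive between tissues (-0.59, -0.64 and 0.45). Between tissues 48 of 56 list genes were called, 31 higher in ileum and 17 lower, where 40.5% of all genes were called higher and 37.5% lower. Desmosomal PKP3 (5.87), the myosin kinase MYLK (3.23), ILDR1 (2.56), CLDN23 (2.51) and the polarity kinase PRKCI (2.12) led on the ileal side on the log2 scale. ILDR2 (-6.51), PPL (-3.95), CGNL1 (-3.59) and AMOTL2 (-2.28) led on the hepatic side together with CLDN14, which had 0 counts in all 10 ileum libraries and 131 to 1653 in liver. The median over the lists was 0.46, over the members 0.44 and over all genes 0.05.

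Members also varied with one another. Across 10 ileum libraries the log2 CPM of CLDN3 and CLDN7 had r = 0.949, that of CLDN4 and CLDN7 r = 0.907 and that of CLDN3 and CLDN4 r = 0.880. Across 23 livers CLDN3 and CLDN4 had r = 0.891, OCLN and F11R 0.796, OCLN and CLDN1 0.786 and CLDN1 and CLDN3 -0.758. These coefficients describe libraries that share the GC slope above. Genes on either side of CLDN3 and CLDN4 on chromosome 3 were not called in liver for OO (ABHD11 0.37, BUD23 0.16, METTL27 0.16, VPS37D 0.66 and MLXIPL -0.77).

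The genes whose level was most like a member's, by Pearson's r of log2 CPM over all genes kept, were led for CLDN3 in liver by ZGPAT (r = 0.989), RNPEPL1 (0.987) and TRAF2 (0.986), whose GC contents of 68.7%, 71.2% and 69.2% lie near that of CLDN3. For CLDN4 they were YIF1A (0.948), RALY (0.943) and AKIP1 (0.942), for CLDN7 HYAL2 (0.839) and MFSD5 (0.827) after a gene without a symbol, and for CLDN1, likewise after a gene without a symbol, RNF139 (0.933) and ALDH6A1 (0.908). OCLN was most like SERINC5 (0.903), ALDH6A1 (0.893) and NNT (0.877), TJP1 like PLA2R1 (0.905), NHSL2 (0.897) and SERINC3 (0.896), F11R like GLYR1 (0.898), SUOX (0.864) and MTF1 (0.858), and CLDN2 like IL22RA1 (0.767), BCR (0.758) and BHLHA15 (0.745). Of the named partners, those of CLDN3, CLDN4 and CLDN7 had 59.9% to 71.2% GC and those of OCLN and CLDN1 41.7% to 47.4%. The partners of TJP1 had 43.8% to 53.9%, those of F11R 51.4% to 54.2% and those of CLDN2 58.9% to 65.9%. These libraries share the GC slope, so partners of like GC content are no separate result. In ileum the closest were IGF2R for CLDN3 (0.992), ARHGEF16 for CLDN7 (0.995), TENT5B for CLDN4 (0.974), E2F3 for OCLN (0.940), BACE1 for TJP1 (0.981), NABP2 for CLDN2 (0.930) and, after 2 genes without a symbol, BCL10 for F11R (0.914).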

How the data were processed

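Ileum (10 libraries) and liver (24 libraries) were sequenced from poly(A) RNA with a stranded kit. The deposited files hold counts of reads per Ensembl gene, which the authors made by aligning reads with STAR 2.6.1d to Sscrofa11.1 and counting with HTSeq, per the processing notes (which also name DESeq2 1.22.2). The annotation release and the strand option are not given in the sources used here. Rows that name no gene were kept out of library sizes, and OP-77 was left out of the main liver fits (its reads with several alignments came to 36.6% of its counts on genes).

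Counts were fitted with edgeR 4.0.16 (R 4.3.3, limma 3.58.1), using TMM scaling, the package's filter on low counts by group and the quasi-likelihood F test, with Benjamini-Hochberg adjustment over all genes kept and calls at an adjusted p of at most 0.05. Ileum, liver (4 diets together) and both tissues of 10 pigs (diet as covariate) were fitted apart. Fold changes are log2 values, and 2 prior counts were added for log2 CPM. Relations across libraries used permutation tests (100000 resamples, exact for 9 libraries) written with NumPy 2.4.6, with ranks from SciPy 1.17.1, and figures matplotlib 3.10.9. DESeq2 1.42.0, other scalings and filters, leaving out each library, title form, GC correction (lowess, span 0.5) and a block per pig were alternatives. Scripts were tested on simulated data.

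The members and lists were chosen with earlier results of these data known. The text names all 9 members, the list genes called in a comparison (at most 5 in each direction by size, or the 3 with the smallest p where none was called) and the 3 genes most like each member, leaving out genes without a symbol and some of the ileum ones. The same number means the same pig in both tissues, and deviations of the 2 libraries of a pig correlated between -0.226 and 0.532 over 13058 genes. P-values measure the spread between pigs of 1 pen per diet. The limit of 3 counts for a library at 0 covers counting error only.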

Additional observations from a re-analysis of the deposited data

Results flagged for a closer look

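Within a diet and tissue, 1 library of a member stood apart from the others of its group in 9 of 48 groups of 5 or 6 libraries, judged by the gap to the nearest library as a share of the group's range (limits 0.71 for 5 and 0.625 for 6 libraries). Chance would flag about 1 in 20 groups if groups were independent and values normally distributed. The values here were CPM not on a log scale, and members varied together (above). The 9 of 48 therefore cannot be set against that share. In ileum, P-134 was the highest PFA library for CLDN3 (32.7 CPM against 4.83 in the next, gap 0.943) and CLDN7 (299.7 against 179 CPM, gap 0.757), and it also had the highest GC slope of the ileum libraries (0.373). In liver, OP-79 was the highest OO + PFA library for CLDN3 (53.5 against 26.9 CPM, gap 0.752), CLDN4 (89.5 against 46.1 CPM, gap 0.717) and CLDN7 (5.74 against 3.09 CPM, gap 0.769), and it had the highest GC slope of the liver libraries (0.487). The part of the slope in these gaps was not tested.

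C-110 was the highest control in ileum for TJP1 (274 against 197 CPM, gap 0.801) and for CLDN1 (1.07 against 0.316 CPM, gap 0.76), and P-95 was the highest PFA library for CLDN1 (1.08 against 0.22 CPM, gap 0.828), a gene with at most 25 counts in ileum. P-107 was the highest PFA liver for TJP1 (71.95 against 65.4 CPM, gap 0.643).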

How the results depend on the processing

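No direction of a called result reversed. Of the member counts, the 4-diet count (1) became 2 with DESeq2, 0 with upper quartile scaling, with title form as a term and within either title form, 0 to 2 leaving out 1 library and 0 to 1 when GC correction was added to that. The OO count (1) became 3 with DESeq2, 2 with GC correction or with the GC slope as a covariate (chosen after seeing the data), 0 within either title form and in a fit of the 2 diets alone, and 0 to 3 leaving out 1 library, with or without GC correction. The OO + PFA count (1) became 2 in a fit of the 2 diets alone, 0 within either title form and 0 to 1 leaving out 1 library. The PFA count (0) became 1 with the slope covariate, and OO + PFA against PFA (0) became 1 with DESeq2 and with all 24 libraries. The relation to cholangiocyte markers (5 members) fell to 1 on deviations from the diet means and ran from 2 (without OO-130) to 7 leaving out 1 library. With a block per pig, 5 members were called between tissues and 0 for the PFA effect between tissues, so the pairing changed no call. The causes were not tested.

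Over all genes (with GC correction, only those with a GC value), the 4-diet count of 506 became 1776 with DESeq2, 803 with GC correction, 1113 with all 24 libraries, 157 and 44 within PigLiv and PL, and 297 to 1450 leaving out 1 library. For OO 375 became 1079, 810, 224, 114 and 8, in the same order, and 194 in a fit of the 2 diets alone, 1080 with the slope covariate and 167 to 1325 leaving out 1 library. For OO + PFA 702 became 1370 with DESeq2, 1530 with all 24 libraries, 1690 in the 2 diets alone, 237 and 12 within title forms and 191 to 1127. For OO + PFA against PFA 218 became 697, 1225, 963, 30 and 35 in that order, 88 with the slope covariate and 103 to 411. For PFA 0 became 43 with DESeq2 and 29 with the slope covariate. Counts of 36 to 1696 for CLDN3 in liver limit the precision of its low libraries.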

Other observations

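OP-77, the OO + PFA liver left out of the main fits, had 60.2 CPM of CLDN3, 35.5 of CLDN4, 5.04 of CLDN7, 50.3 of CLDN1, 16.2 of OCLN, 26.5 of TJP1, 21.4 of CLDN2, 8.19 of F11R and 0 of CLDN15, on a scale set with all 24 liver libraries.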
